A study of Homo sapiens with 3 samples.

Results

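The coenzyme Q biosynthesis genes examined here are COQ2, COQ3, COQ4, COQ5, COQ6, COQ7, COQ8A, COQ8B, COQ9 and PDSS1. These 10 genes were listed by name from the pathway and not by a threshold on a measured value, although earlier results of these data were known when the list was made. They are 10 of the 20033 protein-coding genes that GENCODE 44 places on chromosomes 1 to 22, X and Y. For COQ3 the study itself picked the promoter from these same peaks for ChIP-qPCR, so its values are no independent evidence and counts are also given without it. The study asked where the zinc finger protein ZBTB11 sits on chromatin, using chromatin immunoprecipitation followed by sequencing (ChIP-seq), which recovers DNA fragments bound by a protein through an antibody. All libraries came from NCI-H1299, a human lung cancer line that the labels give as wild-type and that the study elsewhere describes as p53-null. The cells were grown in DMEM with FBS, left untreated and fixed with formaldehyde. The libraries differed only in the antibody, which was a Bethyl antibody against ZBTB11 in 1 library, normal IgG as negative control in 1 library (from CST per the labels, whereas the study's methods name Invitrogen), and none in an Input library that was not analysed here. With 1 library per group no difference had a replicate check, no test across samples was possible, and all values describe these libraries of a single cell line.

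Coenzyme Q, or ubiquinone, is a lipid that carries electrons in the inner mitochondrial membrane from complexes I and II and from several other dehydrogenases to complex III. Its polyprenyl tail is built from mevalonate pathway units, joined to a benzoate ring, and the ring is then methylated, hydroxylated and decarboxylated by enzymes that assemble with helper proteins on the matrix side of that membrane. All of these proteins are encoded in the nucleus, and inherited defects in them cause primary coenzyme Q deficiency, a disease of the kidney, brain and muscle.

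A peak is an interval where the authors' peak caller found more fragments than its local background, and its summit is the position of the highest pile of fragments. Each peak carries a fold enrichment (summit over background) and a −log10 p against a Poisson background. From both values it was possible to solve for the background and for the fragments piled at the summit, and fragment counts are given with exact Poisson 95% intervals, which cover counting error only. A peak was assigned to a gene if it lay within 3 kb of any annotated transcription start site (TSS) of that gene, and was called strong at a p-value of 1e-05 or less. The canonical start is that of the transcript marked canonical in the annotation. The ZBTB11 list held 346891 peaks with a median of 5 fragments and a lowest value of 3, and the IgG list held 26712 peaks with a median of 6, on chromosomes 1, 10, 21 and Y only. The caller's genome-wide background was 1.35 fragments for ZBTB11 and 1.55 for IgG. Each antibody was called on its own, so a higher local background can include fragments of the peak itself and of peaks nearby. Fold enrichment and p-value are therefore not independent of the height of the peak, and the fold can understate tall peaks.

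All 10 coenzyme Q genes had a ZBTB11 peak near a start, as did 87.7% of all protein-coding genes. The strongest peak of each of the 10 was strong, against 46.9% of protein-coding genes, and without COQ3 the count was 9 of 9. At a p-value of 1e-10 or less it was 7 of the 10, without COQ2, COQ5 and COQ7, against 31.8% of protein-coding genes. In all, 20 ZBTB11 peaks lay near these genes, of which 11 were strong and 9 were weak, with 4 to 8 fragments each. COQ2, COQ3, COQ4 and COQ6 had 1 peak, the other 6 had more, and COQ8B alone had a second strong peak, as 5.48% of protein-coding genes did. The 10 strongest peaks ranged from 12 to 466 fragments. At least 300 fragments were reached by COQ3 and COQ4, a level reached by 2.77% of protein-coding genes. At least 100 were reached by 4 of the 10, against 8.33%, and at least 50 by 6 of the 10, against 14.8%. The remaining 4 had under 20, a number that 29.6% of protein-coding genes reached or passed. The median −log10 p of the 10 was 40.8, or 38.4 without COQ3, beside 4.54 over all protein-coding genes with genes lacking a peak set to 0.

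The DNA at the summits is shown for 6 genes, which stand for the strongest promoters (COQ4, COQ3, PDSS1), the promoters with the study's consensus (CCGGAAG or CAGGAAG) at the summit (COQ4, COQ8A, COQ8B) and the weakest peak (COQ2). All are hg38, read 5′ to 3′ on the strand of the gene from windows that reach 50 bp to either side of a summit, some shortened. For COQ8B only the stretch just upstream of the summit, which holds the consensus, is printed. Capitals mark the consensus CCGGAAG, or in COQ3 its first bases CCGGAA without the final G.
COQ4, chr9:128322492-128322573, plus strand: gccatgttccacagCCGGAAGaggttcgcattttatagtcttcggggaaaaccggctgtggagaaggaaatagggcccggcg
COQ3, chr6:99394164-99394264, minus strand: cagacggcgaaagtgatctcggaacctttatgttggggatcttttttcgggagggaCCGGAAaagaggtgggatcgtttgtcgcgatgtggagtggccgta
PDSS1, chr10:26697489-26697589, plus strand: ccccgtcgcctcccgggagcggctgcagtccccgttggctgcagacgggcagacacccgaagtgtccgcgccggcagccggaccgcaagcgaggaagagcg
COQ8A, chr1:226939690-226939790, plus strand: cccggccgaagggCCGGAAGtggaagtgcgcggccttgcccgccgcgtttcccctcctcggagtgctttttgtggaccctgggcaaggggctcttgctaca
COQ8B, chr19:40715082-40715121, minus strand: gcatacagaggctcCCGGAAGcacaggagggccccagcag
COQ2, chr4:83284712-83284794, minus strand: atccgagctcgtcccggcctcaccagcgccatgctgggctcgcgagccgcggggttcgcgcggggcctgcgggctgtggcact

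Of the genes that build the tail and join it to the ring, PDSS1 had the third strongest peak of the 10 and COQ2 the weakest. PDSS1 (ENSG00000148459.16, chromosome 10, plus strand) encodes a subunit of the synthase that makes the decaprenyl tail. Its strongest peak, chr10:26697017-26698127, had 149 fragments at the summit (126 to 175) over a background of 8.33, with a fold enrichment of 16.1 and a −log10 p of 128, and ranked 929 in the ZBTB11 list. The summit lay 162 bp upstream of the canonical start, and 1119 protein-coding genes, PDSS1 included, had a peak as strong. The other 3 ZBTB11 peaks near later PDSS1 starts had 4 or 5 fragments. COQ2 (ENSG00000173085.15, chromosome 4, minus strand), the transferase that attaches the tail to 4-hydroxybenzoate, had a peak that covered chr4:83284110-83285040 with 12 fragments (6.2 to 21), a background of 2.04, a fold enrichment of 4.28 and a −log10 p of 6.59, and 8081 protein-coding genes had one as strong. Its summit fell in a coding exon of the canonical transcript, 36 bp downstream of the canonical start. The fragment intervals of PDSS1 and COQ2 did not overlap.

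Among the enzymes that modify the ring, the methyltransferase COQ3 and the hydroxylase COQ6 had far more fragments than the methyltransferase COQ5 and the hydroxylase COQ7. COQ3 (ENSG00000132423.12, chromosome 6, minus strand), which methylates the ring's hydroxyl groups, had 400 fragments (362 to 441) at chr6:99393780-99394623 over a background of 18.9. Its fold enrichment of 20.2 was the highest of the 10 genes, its −log10 p was 368, and its peak ranked 282. The summit lay 19 bp upstream of the canonical start, and the peak covered no start of another gene on the opposite strand. COQ6 (ENSG00000119723.17, chromosome 14, plus strand), a flavin-dependent hydroxylase, had 101 fragments (82.3 to 123) at chr14:73949900-73950732, a background of 5.91, a fold enrichment of 14.8 and a −log10 p of 85.8. Its summit was in a coding exon, 82 bp downstream of the canonical start.

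COQ5 (ENSG00000110871.15, chromosome 12, minus strand), the methyltransferase that adds a methyl group to a ring carbon, had its strongest peak at chr12:120534166-120534754. It held 15 fragments (8.4 to 24.7) over 2.24, a fold enrichment of 4.93 and a −log10 p of 8.62. The summit was 117 bp upstream of the most upstream COQ5 start but 5393 bp upstream of the canonical start. Within 3 kb of the canonical start COQ5 had only a weak intronic peak, chr12:120526779-120527215, with 5 fragments and a −log10 p of 1.98, its summit 2128 bp downstream of that start. COQ5 is therefore the member whose call rests on a non-canonical start, and counting canonical starts alone left 9 of the 10 genes with a strong peak, beside 43.4% of protein-coding genes. COQ7 (ENSG00000167186.11, chromosome 16, plus strand), the di-iron hydroxylase of the penultimate step, had 13 fragments (6.92 to 22.2) at chr16:19067493-19068305 over 1.37, a fold enrichment of 5.91 and a −log10 p of 9.59. The summit lay in a coding exon 87 bp downstream of the canonical start. Its background was the lowest of the 10, so its p-value ranked above that of COQ5 although its fragment count did not.

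COQ4, COQ9 and the kinase-like pair COQ8A and COQ8B also differed widely. COQ4 (ENSG00000167113.11, chromosome 9, plus strand), which is needed for a stable enzyme assembly, had the strongest peak of the 10 by p-value and by fragments. At chr9:128322131-128323009 it held 466 fragments (425 to 510) over a background of 23.8, with a fold enrichment of 18.9 and a −log10 p of 413, and ranked 135 in the list. Only 175 protein-coding genes, COQ4 included, had a peak as strong. The summit was 2 bp upstream of the first annotated COQ4 start and 297 bp upstream of the canonical one. COQ9 (ENSG00000088682.14, chromosome 16, plus strand), the lipid-binding partner of COQ7, had 17 fragments (9.9 to 27.2) at chr16:57447171-57447817 over 1.93, a fold enrichment of 6.13 and a −log10 p of 11.4. Its summit was 34 bp upstream of the canonical start. The fragment intervals of COQ9 and COQ7 overlapped.

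COQ8A and COQ8B, paralogous kinase-like ATPases, had intermediate strongest peaks whose summits lay away from their canonical starts. COQ8A (ENSG00000163050.18, chromosome 1, plus strand) had 53 fragments (39.7 to 69.3) at chr1:226939347-226940287 over 3.53, a fold enrichment of 11.9 and a −log10 p of 43.3. The peak reached the first annotated COQ8A start at its edge but did not cover the canonical start, 554 bp downstream of the summit. COQ8B (ENSG00000123815.13, chromosome 19, minus strand) had 2 strong peaks. The stronger one, chr19:40714717-40715908, was 1192 bp wide, the widest of the 10, with its summit exactly at an alternative start inside an intron, 1815 bp downstream of the canonical start. It held 82 fragments (65.2 to 102) over 12.7, with a fold enrichment of 6.05 and a −log10 p of 38.4. The second, chr19:40716634-40717332, had 75 fragments (59 to 94) over 12.9 and a −log10 p of 32.4, and its summit was 38 bp upstream of the canonical start. COQ8B had more fragments than COQ8A, yet a larger p-value and a lower fold enrichment, over a background of 12.7 against 3.53. The 2 COQ8B peaks lay close together with nearly equal backgrounds, and whether each raised the background of the other was not tested. The intervals of the fragment counts of the 2 COQ8B peaks overlapped, as did those of COQ8A and the stronger COQ8B peak.

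Ordered by p-value, the genes ran COQ4, COQ3, PDSS1, COQ6, COQ8A, COQ8B, COQ9, COQ7, COQ5 and COQ2. Fragment intervals of neighbours did not overlap between COQ3 and PDSS1, PDSS1 and COQ6, COQ6 and COQ8A, or COQ8B and COQ9. They overlapped for all other neighbours. The ratio of fragments between such neighbours, with its exact 95% interval for counting error, was 1.17 (1.02 to 1.33) for COQ4 over COQ3, and 0.646 (0.449 to 0.924) for COQ8A over COQ8B, where the order by fragments is the reverse of that by p-value. For COQ9 over COQ7 it was 1.31 (0.598 to 2.93), for COQ7 over COQ5 0.867 (0.38 to 1.95) and for COQ5 over COQ2 1.25 (0.546 to 2.92), intervals that include 1, so these 4 genes could not be ordered by their fragments. The plot of fragments by gene shows this break, with the 6 upper genes at 53 fragments or more and the 4 lower ones at 17 or fewer. No cause of the break was tested.

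**Figure D1:**
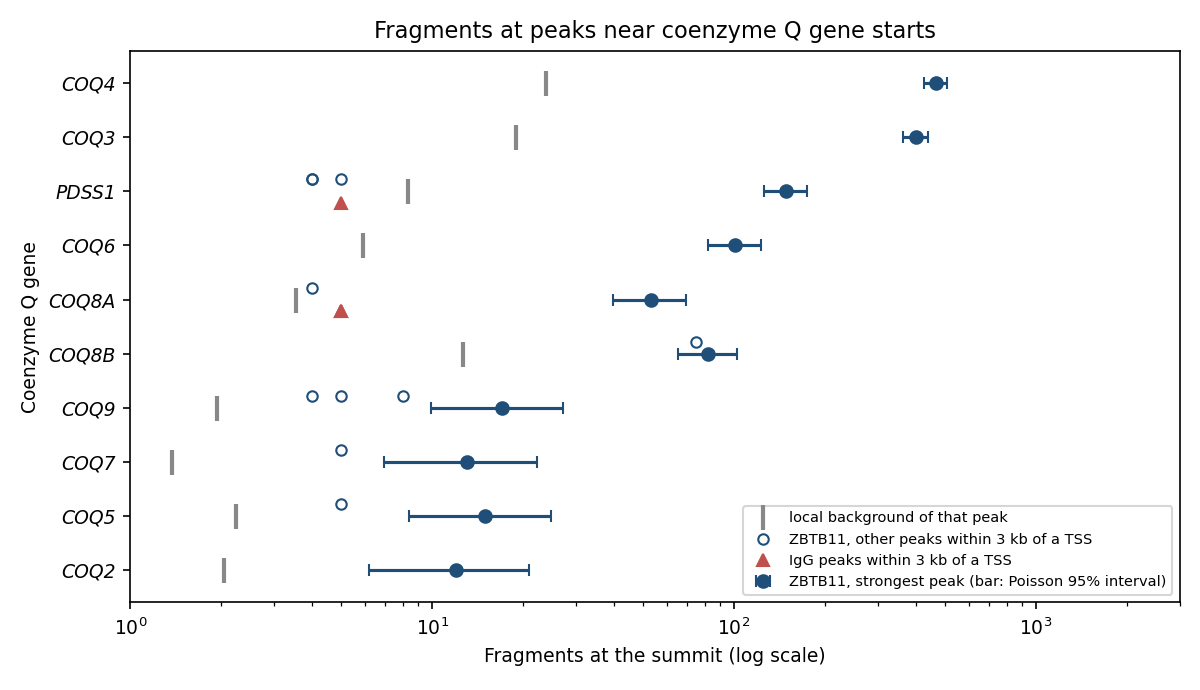
Fragments at the summit (horizontal axis, log scale) of ZBTB11 peaks near each coenzyme Q gene, in order of p-value. Filled circles are the strongest peak with its exact Poisson 95% interval, open circles other ZBTB11 peaks within 3 kb of a start, triangles IgG peaks and grey ticks the local background of the strongest peak; COQ4 (466) and COQ3 (400) stand far right, and COQ9, COQ7, COQ5 and COQ2 (12 to 17) lie near the weak peaks.

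Set against all protein-coding genes, COQ4 stood at the 99.1st percentile of the −log10 p of the strongest peak and COQ3 at the 98.2nd. PDSS1 was at the 94.4th, COQ6 at the 92.1st, COQ8A at the 86.9th and COQ8B at the 85.7th. COQ9 (70.3), COQ7 (67.4), COQ5 (65.4) and COQ2 (59.7) stood in the upper part of the distribution but with between 5950 and 8081 protein-coding genes having a peak as strong. The curve of all genes shows the first 6 on its flat tail and the last 4 on its slope.

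**Figure D2:**
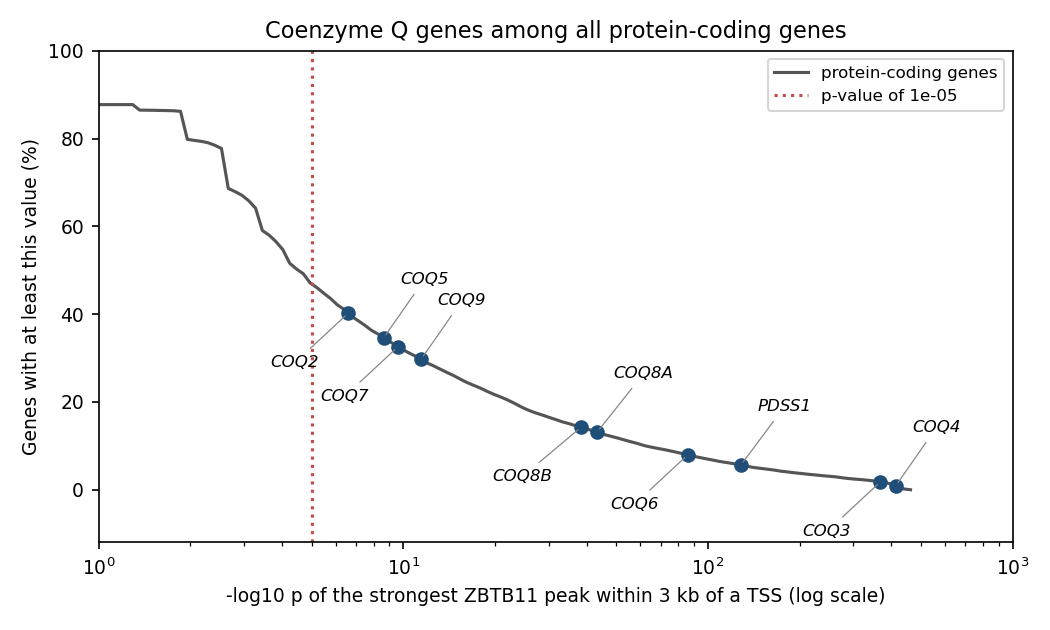
Share of protein-coding genes (vertical axis, percent) whose strongest ZBTB11 peak within 3 kb of a start has at least the −log10 p on the horizontal axis (log scale), with the coenzyme Q genes as points and a dotted line at a p-value of 1e-05. All 10 genes lie right of the line, which 46.9% of protein-coding genes reach, from COQ2 at 6.59 to COQ4 at 413.

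The summits lay close to annotated starts. For 9 of the 10 genes the summit was within 200 bp of a start of the gene, COQ8A at 546 bp being the exception, beside 63.1% of protein-coding genes with a strong peak. The median distance was 29.5 bp (40 bp without COQ3) beside 120 bp over the 9393 protein-coding genes with a strong peak. The peak covered the canonical start in 7 of the 10, beside 68.6%. In COQ5, COQ8A and COQ8B the summit was over 500 bp from the canonical start, as it was in 30.6% of the genes with a strong peak. The strongest peaks were 589 to 1192 bp wide with a median of 862 bp, beside 865 bp over those genes. The GC content of the summit windows ranged from 53.5% in COQ3 to 83.2% in COQ5, with a median of 72.3% beside 67.3%. The genes had 3 (COQ3) to 38 (COQ8B) annotated starts, with a median of 7 beside 7. The genes with the most fragments, COQ3 and COQ4 (57.4%), had the lowest GC content of the 10, which is a description of 10 windows and was not tested.

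Several of the peaks also covered the start of a neighbouring gene on the opposite strand, so that the fragments cannot be assigned to 1 gene of the pair. This held for 6 of the 10 coenzyme Q genes, beside 38.5% of protein-coding genes with a strong peak, and for 4 of the 10 with a protein-coding neighbour, beside 22.6%. COQ4 shared its peak with TRUB2, a mitochondrial pseudouridine synthase, whose canonical start lay 95 bp from the summit and 392 bp from the COQ4 canonical start. COQ9 shared its peak with CIAPIN1, a factor of cytosolic iron-sulfur protein assembly, whose start lay 60 bp from the summit and 94 bp from that of COQ9. In COQ6 the neighbour was FAM161B, with its canonical start 290 bp and its nearest start 30 bp from the summit. In COQ5 the neighbours were RNF10, a RING-type ubiquitin ligase with its canonical start 195 bp from the summit, and ENSG00000288623, 146 bp from the summit. The COQ5 peak was thus nearer to the canonical starts of both neighbours than to the canonical start of COQ5. A non-canonical RNF10 start lay 37 bp upstream of the summit in the direction of COQ5. It was nearer to the summit than the closest COQ5 start, at 117 bp.

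The remaining neighbours were not protein-coding. COQ7 shared its peak with the divergent long non-coding RNA COQ7-DT, which overlaps it. Starts of COQ7-DT lay 10 and 60 bp from the summit, downstream of the COQ7 canonical start, while the canonical COQ7-DT start lay outside the peak. PDSS1 shared its peak with the pseudogene SELENOOLP (244 bp) and the unclassified ENSG00000279212 (86 bp). The strongest peaks of COQ2, COQ3, COQ8A and COQ8B covered no opposite-strand start. The second COQ8B peak covered the start of ITPKC, an inositol-trisphosphate kinase, 188 bp from its summit and 226 bp from the COQ8B canonical start. Peaks with and without such a neighbour were found among the strongest genes (COQ4 and COQ3) and among the weakest (COQ5 and COQ2).

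**Figure D3:**
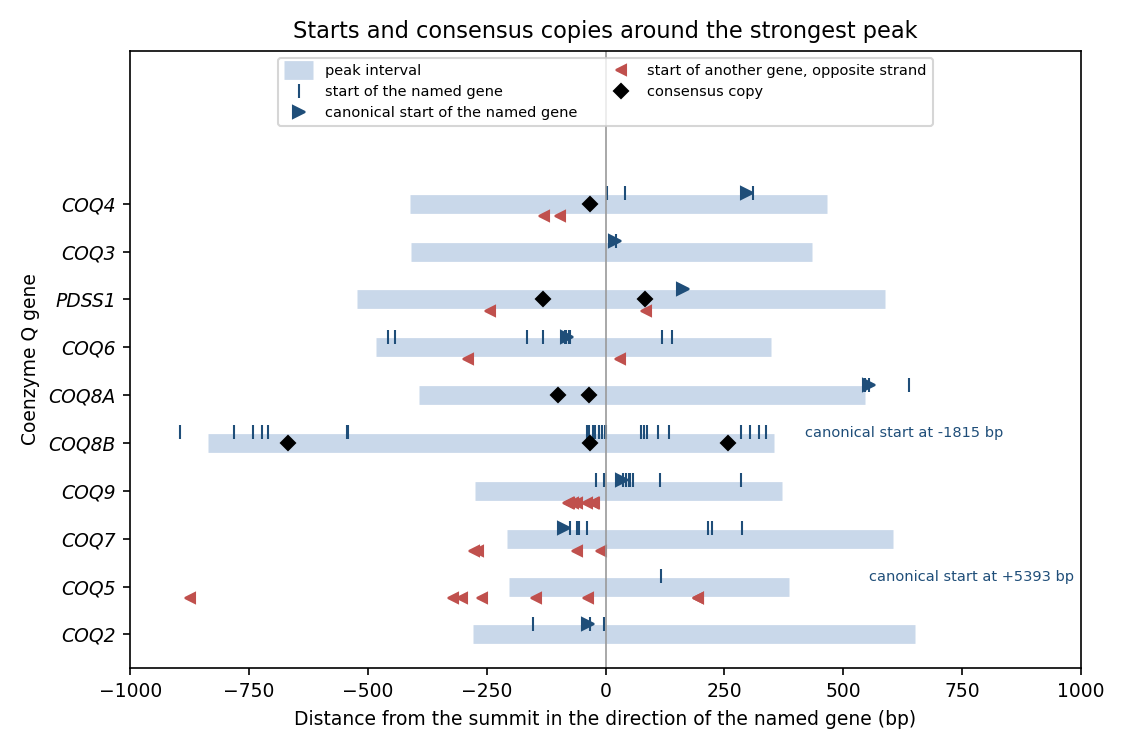
Position of annotated starts and consensus copies relative to the summit of the strongest ZBTB11 peak (horizontal axis, bp, positive in the direction of the named gene). Bars are peak intervals, blue ticks starts of the named gene, blue triangles its canonical start, red triangles starts of other genes on the opposite strand and diamonds copies of the consensus; COQ3, COQ2 and COQ9 have their canonical start within 36 bp of the summit, whereas those of COQ8B and COQ5 lie outside the range drawn, at 1815 and 5393 bp.

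Away from their starts, no coenzyme Q gene held a strong ZBTB11 peak. More than 3 kb from any of the gene's starts, 6 of the 10 genes held a peak, beside 63.9% of protein-coding genes, and 0 held a strong one, beside 6.57%. These were 16 peaks in all, or 6.12 for each 100 kb of gene, beside 9.65 over all protein-coding genes, which was not tested. The lengths include the stretches within 3 kb of a start, where no peak was counted. Such stretches can take up different shares of the genes in the 2 sets, so the densities are not directly comparable. COQ5 and PDSS1 held 4 each, COQ8A held 3, COQ2 and COQ8B held 2 each, and COQ3 held 1. The counts were 8 and 12 fragments in COQ8B, 8 in COQ3 and 3 to 6 in the others, below the strongest promoter peak of the same gene in each case.

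The consensus, searched as CCGGAAG and as CAGGAAG on both strands, occurred within 50 bp of the summit in COQ4, COQ8A and COQ8B. These 3 of 10 genes stand beside 24.3% of all 7697 strong promoter peaks, and COQ3 was not among them. All 3 copies were CCGGAAG on the strand of the gene, as printed above, with their centres 33, 34 and 33 bp upstream of the summit in COQ4, COQ8A and COQ8B. In the 1871 strong promoter peaks with the consensus, the nearest copy lay a median of 22 bp from the summit (quartiles 11 and 34). Only copies within 50 bp of the summit were counted, which bounds these distances, and whether copies centre on the summit was not tested. COQ3 held CCGGAA without the last G, 8 bp downstream of its summit on the strand of the gene, and COQ7 held CCGGAA on the other strand, so that 5 of 10 genes held these 6 letters beside 27.5% of strong promoter peaks. Over the whole peak interval PDSS1 also held the consensus, 131 bp upstream and 82 bp downstream of the summit. There was no copy anywhere in the strongest peak of 6 genes, COQ3 and COQ6 with their 400 and 101 fragments among them. The share of all strong promoter peaks without a copy in the whole interval was not computed, so nothing is concluded from this count.

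The share of peaks with the consensus differed with peak strength across all promoters, and the coenzyme Q genes were spread over every class. It was 12.4% (Wilson 95% interval 11.1 to 13.7) of 2615 peaks with a −log10 p of 5 to 10, the class of COQ2, COQ5 and COQ7, which all lacked it. It was 19.9% (18.1 to 21.8) of 1710 peaks from 10 to 20, where COQ9 lacked it. It was 28.7% (26.5 to 30.9) of 1595 peaks from 20 to 50, the class of COQ8A and COQ8B, which both held it. It was 39.8% (36.3 to 43.3) of 742 peaks from 50 to 100 and 44.8% (40.4 to 49.3) of 482 peaks from 100 to 200, where COQ6 and PDSS1 lacked it. It was 43.4% (39.3 to 47.6) of 553 peaks at 200 or more, where COQ4 held it and COQ3 did not. By fragments, 3 of the 6 genes with at least 50 fragments and 0 of the 4 genes under 20 fragments held the consensus at the summit. These fragment cuts follow the gap among the 10 genes. The share over all strong promoter peaks was not computed at them, so no link of the consensus with fragments is drawn from this split. These shares were not tested.

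**Figure D4:**
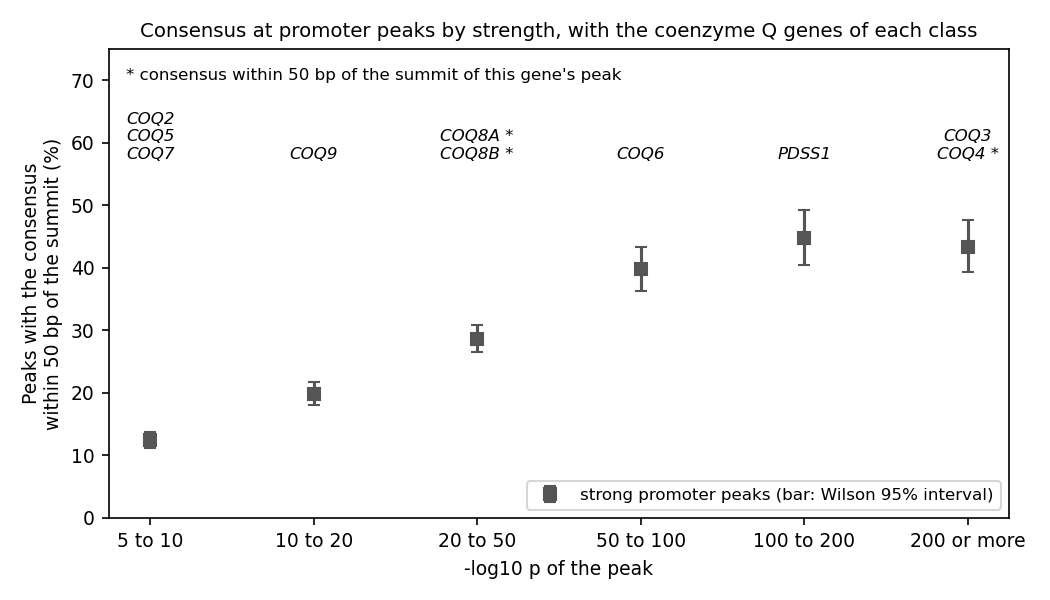
Share of strong promoter peaks with the consensus within 50 bp of the summit (vertical axis, percent, squares with Wilson 95% intervals) by class of −log10 p (horizontal axis), with the coenzyme Q genes of each class named above it and an asterisk where the gene's own peak holds the consensus. The share runs from 12.4% in the weakest class to 44.8% in the class of PDSS1 (100 to 200) and 43.4% in the strongest.

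Other promoter motifs were searched in the same summit windows on both strands. The GC box GGGCGG, recognised by SP1, was found in COQ5, COQ7 and COQ9, which is 3 of 10 beside 33.4% of strong promoter peaks. The letters ACTACAA, from the element of ZNF143 and THAP11, were in 0 of the 10 windows, beside 0.844% of strong promoter peaks. Likewise absent from the 10 windows were GCGCATGCG of the factor NRF1 (0.39% of strong promoter peaks), AAGATGGCG of the factor YY1 (1.03%) and ATTGG of the factor NFY (7.2%). Outside the summit windows, the NRF1 letters, which nearly repeat themselves on the other strand, lay 202 bp downstream of the COQ3 summit and 261 bp downstream of the COQ8A summit, within both peaks. ACTACAA lay 382 bp downstream of the COQ7 summit. A match of letters is a description of the sequence and not a mapped site. The RefSeq promoter sequences for hg38 (300 bases, from 250 before to 50 after a start) covered 8 of the 10 genes, without COQ3 and COQ4. Among these, COQ8B (1 of 2 promoters) and PDSS1 (1 of 1) held the consensus. No promoter of COQ6 (3 promoters), COQ7 (4) or of COQ2, COQ5, COQ8A and COQ9 (1 each) did. The share over all RefSeq promoters, counted by promoter and not by gene, was 21.8% of 35116.

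The study's ChIP-qPCR primers for COQ3 could be placed next to its summit, and are printed because they mark the stretch of this peak that the study amplified.
COQ3 forward, chr6:99394325-99394346, minus strand: gaatccgagatggggactgtac
COQ3 reverse, chr6:99394224-99394245, plus strand: gatccccaacataaaggttccg
The amplicon of 123 bp, chr6:99394224-99394346, lay wholly within the COQ3 peak on the upstream side of the summit. Its nearest end was 10 bp and its centre 71 bp from the summit, so the summit itself and the CCGGAA letters lay outside it.

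IgG could be compared only for COQ8A and PDSS1, since the other 8 genes are on chromosomes for which the IgG list held no peak, and what IgG recovered there is not known. Both genes had an IgG peak near a start, as did 67.3% of the 3074 protein-coding genes on these chromosomes, but none was strong, against 1.95%. The same 3074 genes had a strong ZBTB11 peak in 44% of cases. At PDSS1 the IgG peak chr10:26697866-26698255 had 5 fragments over 1.55, a fold enrichment of 2.35 and a −log10 p of 2.28. It overlapped the strongest ZBTB11 peak, which had 149 fragments, by 262 bp, with the summits 586 bp apart. At COQ8A, 2 IgG peaks of 5 fragments each lay near internal starts, 39300 and 43260 bp downstream of the canonical start, and neither overlapped the strongest ZBTB11 peak. No IgG peak of COQ8A or PDSS1 passed a q-value of 0.05, and the share of the 3074 genes with such an IgG peak was not computed. The strongest ZBTB11 peaks of these 2 genes did pass it. So did those of the other 8 genes, which have no IgG comparison, and 55.3% of protein-coding genes had such a ZBTB11 peak. The lists were called separately and the sources used here give no depth for each library, so fragment counts of ZBTB11 and IgG are set side by side without a ratio.

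Further genes of ubiquinone synthesis, tail supply and ubiquinone reduction were examined in 3 lists. Of these 26 genes, all had a peak near a start and 18 had a strong one, beside 46.9% of protein-coding genes, with a median of 12 fragments. Among 7 further ubiquinone genes outside the 10 biosynthesis genes above, 3 had a strong peak. COQ10B, a ubiquinone-binding START-domain protein, had 174 fragments (149 to 202), and its relative COQ10A had 12 (6.2 to 21). PDSS2, the partner subunit of PDSS1 in the tail synthase, had 15 (8.4 to 24.7) and held the consensus, so that the 2 subunits of 1 enzyme differed in fragments with intervals that did not overlap. ADCK2, HPDL, FDX2 and FDXR had 5 to 10 fragments and were not strong, FDXR being the weakest with a −log10 p of 2.57.

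Of 8 mevalonate pathway genes that supply the isoprenoid tail, 6 had a strong peak. GGPS1, which makes geranylgeranyl diphosphate, had 153 fragments (130 to 179), and FDPS, which makes farnesyl diphosphate, had 28 (18.6 to 40.5). IDI1, MVK and MVD had 9 to 12 fragments and were strong, while HMGCS1, the weakest of this list with a −log10 p of 4.45, and PMVK had 10 each and were not strong. The weakest of the 10 biosynthesis genes, COQ2, had 12.

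Of 11 genes for dehydrogenases that pass electrons to ubiquinone, 9 had a strong peak, and their median of 24 fragments was the highest of the 3 lists. DHODH, of pyrimidine synthesis, had 131 fragments (110 to 155), the complex II subunit SDHD had 80 (63.4 to 99.6) with the consensus at the summit, and the sulfide oxidoreductase SQOR had 53 (39.7 to 69.3). GPD2, CHDH, SDHB, SDHC, AIFM2 and ETFDH had 47 to 10 fragments. SDHA, the flavoprotein of complex II, had 10 fragments with a −log10 p of 3.87, and PRODH, the weakest, had 3. The 4 subunits of complex II therefore spanned 10 to 80 fragments.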

How the data were processed

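ChIP-seq peak lists of 1 ZBTB11 and 1 IgG library from NCI-H1299 were used, with groups taken from the sample titles. Per the study's methods, reads were paired-end and were mapped to hg38 by BWA, and the authors ran MACS on each antibody on its own with a p-value limit of 0.05. The deposited files give for each peak a fold enrichment (a ratio to local background), a −log10 p-value, a −log10 q-value and a score. The deposited score follows from the −log10 p and was not used. The methods name an early MACS release, whereas the files have the layout with q-values that later releases write, so the release is uncertain.

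Fragments at summits were solved from fold and p (pseudocount of 1 on both pileup and background, tolerance 0.001), which succeeded for 100% of every 20th peak and was tested on simulated data. Starts came from GENCODE 44, and promoter sequences from RefSeq. Analyses were run in python 3.11.15 with numpy 2.4.6, pandas 2.3.3, scipy 1.17.1 and pysam 0.24.0. Intervals cover counting error only, and no depth is given for each library. The members, gene lists, motifs and thresholds were chosen with earlier results of these data known. All members were named, together with genes whose starts their peaks covered, and genes of the 3 other lists, of which 1 is counted but not reported here. Alternatives were the start window, canonical or protein-coding starts, p and q thresholds, motif windows and letters, partner definitions, IgG overlap, and leaving out COQ3.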

Additional observations from a re-analysis of the deposited data

How the results depend on the processing

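Of 38 alternative values for 6 counts, 32 stayed within a factor of 1.5 of the count reported and 6 moved further. Some of the 32 could not have moved. For the 10 genes with a strong peak, a q-value of 0.05 and a p-value of 1e-03 were looser limits than the one used. Leaving out COQ3 could remove only that gene, and COQ3 was not counted among genes with the consensus. The tally therefore overstates how far the counts were tried. All 10 coenzyme Q genes kept a strong peak with windows of 1 kb or 500 bp and with starts of protein-coding transcripts. The shares of all protein-coding genes were not computed at these settings. All 10 also had a peak at a q-value of 0.05, as did 55.3% of protein-coding genes. The count of strong peaks was 9 with canonical starts only, where COQ5 was lost, beside 43.4% of protein-coding genes. It was 7 at a p-value of 1e-10, beside 31.8%. For the other ubiquinone and supply genes it fell from 18 to 10 at a p-value of 1e-10. The count of genes with the consensus at the summit moved from 3 to 0 within 25 bp on each side, since all copies lay 33 or 34 bp away, and to 5 with the core CCGGAA. It was 4 within 100 bp, and 3 at the strongest peak near the canonical start, an alternative chosen after seeing the data. The number of genes with an IgG peak near a start moved from 2 to 0 at a q-value of 0.05 and to 1 when it had to overlap the strongest ZBTB11 peak by at least 1 bp, and was also 1 with a stricter overlap. The 4 genes at 12 to 17 fragments could not be ordered by counting error. No paired analysis was possible because ZBTB11 and IgG have 1 library each.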
